A study of Mus musculus with 11 samples.

Results

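The genes of Polycomb repressive complex 2 (PRC2) were followed in RNA-seq libraries of LSKs, the Lin-Sca1+Kit+ fraction of mouse bone marrow that holds hematopoietic stem cells (HSCs) and multipotent progenitors. The members were chosen by name as 10 core and accessory subunits, Ezh2, Ezh1, Eed, Suz12, Rbbp4, Rbbp7, Mtf2, Phf19, Jarid2, and Aebp2. All 10 were found among the 12647 genes of the deposited count table, and all 10 passed the filter on low counts that left 12625 genes to test. Each of 3 genotypes on a C57BL/6 background had 3 libraries. The p53+/+ mice carry HUPKI, a humanized knock-in allele that encodes a human/mouse chimeric p53 protein, and the p53R248W/+ mice are heterozygous for the R248W substitution in the humanized allele, expressed from the endogenous mouse Trp53 promoter. The p53-/- mice lack p53. The methods describe the mice as young (8 to 12 weeks old) and tumor free, and do not say whether an RNA-seq library came from a single mouse or a pool. The p-values below therefore measure the spread between these libraries. The 2 H3K27me3 ChIP-seq samples of the study were not analysed here, so nothing below measures the histone mark itself.

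PRC2 places methyl groups on lysine 27 of histone H3, and the trimethylated form, H3K27me3, marks genes that are held silent. EZH2 and EZH1 are alternative catalytic subunits, and EED and SUZ12 are needed for either of them to work: EED binds the methylated histone tail and SUZ12 is the scaffold. RBBP4 and RBBP7 are histone binding proteins that are shared with other chromatin complexes. A core bound to MTF2 or PHF19, Polycomb-like proteins, is called PRC2.1, and a core bound to JARID2 and AEBP2 is called PRC2.2. In blood, Ezh2 is known to be higher in cycling cells and Ezh1 to be kept in resting cells. The study asked how mutant p53 acts through EZH2, and the comparisons here ask whether the RNA of any PRC2 subunit differed between the genotypes. For mutant stem and progenitor cells the paper reports a modest rise of EZH2, with the other core components at similar levels. It concludes that mutant p53 binds EZH2 and raises its association with chromatin. For cells without p53 it states no significant effect on the EZH2 target gene signature.

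The genes lie on 8 chromosomes of GRCm38, the mouse build that equals mm10, by the RefSeq annotation. Ezh2 spans chr6:47530274-47595270, Ezh1 chr11:101191115-101226463, Eed chr7:89954654-89980976, and Suz12 chr11:79993106-80034123. Suz12 starts 10.4 Mb and Ezh1 31.6 Mb from the end of Trp53, which lies at chr11:69580348-69591873. Rbbp4 spans chr4:129307100-129335370 and Rbbp7 chrX:162760372-162779090, so that Rbbp7 is the X-linked member. Mtf2 spans chr5:108065660-108109219, Phf19 chr2:34893752-34914353, Jarid2 chr13:44730774-44921643, and Aebp2 chr6:140622454-140678472.

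Promoter sequences, from 250 bases before to 50 bases after a gene's start in RefSeq (GRCm38.p6), were found for all 10 genes, with 14 promoters in all because Mtf2, Jarid2, and Aebp2 have more than 1 start. The E2F-like motif TTTNNCGC, searched on both strands, was found in 3 of the 14 promoters, those of Ezh2, Suz12, and Phf19, the last with 2 matches, and in 5.17% of all 32851 promoters. CCAAT boxes were found in 9 of 14 (37.4% of all promoters), GC boxes (GGGCGG) in 9 of 14 (35.7%), and the cell cycle homology region motif TTTGAA in 4 of 14 (17.9%). The ratio of observed to expected CpG was above the median of all promoters (0.384) in 11 of 14, at least 1 of them for each gene, and was 0.999 for Ezh2, 1.09 for Suz12, and 0.882 for Ezh1. The Ezh1 promoter held none of the 4 motifs. The letters are shown for Ezh2 and Suz12, the members whose 95% intervals for p53-/- against p53+/+ LSKs lay below 0 in the comparisons that follow, with 1 of the 3 CCAAT boxes of Ezh2. Capitals mark the motif, read along the gene's strand, and positions count its first base from the start. A match of letters is not a measured binding site.
Ezh2 E2F-like motif, position 4, chr6:47595009-47595038: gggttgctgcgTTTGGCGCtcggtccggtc
Ezh2 CCAAT box, position -64, chr6:47595079-47595105: tctcgcatcctCCAATcggagaggcgc
Suz12 E2F-like motif, position -219, chr11:79992876-79992905: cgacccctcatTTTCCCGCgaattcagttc
Suz12 TTTGAA on the opposite strand, position -203, chr11:79992892-79992919: cgcgaattcagTTCAAAgaggcgtccgg
Suz12 CCAAT box, position -61, chr11:79993034-79993060: gctcccgccggCCAATcagagcgccgg

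Total counts ranged from 18021375 to 29750702 per library, and levels are given as counts per 1000000 counts of a library (CPM), with library sizes scaled by TMM factors. The members had between 140 counts (Phf19) and 26173 counts (Rbbp4) in a library. Trp53 was at 112 to 129 CPM in p53-/- libraries and at 125 to 376 CPM in p53+/+ libraries, so its reads do not separate these genotypes. In p53R248W/+ libraries Trp53 was at 218.7 to 240.5 CPM, above all p53-/- libraries. The p53 target Cdkn1a was at 8.27 to 17.8 CPM in p53-/- libraries and at 35.7 to 67.0 CPM in the others. Of the markers that define LSKs, Kit was at 427 to 861 CPM and Ly6a, which encodes Sca1, at 150 to 444 CPM. Y-linked genes summed to 69.8 to 185 CPM in p53+/+ replicate 2 and p53R248W/+ replicates 2 and 3 and to at most 0.216 CPM in the other 6 libraries. Xist, an X-linked gene, was at 65.0 CPM in p53+/+ replicate 2 and 149 CPM in p53R248W/+ replicate 2. It was at 6.26 CPM in p53R248W/+ replicate 3 and at 116 to 283 CPM in the other 6. Whether the libraries with both signals mix cells of both sexes was not tested. No p53-/- library was among those with Y-linked signal, so Y-linked signal and genotype are partly confounded. The labels of the p53-/- libraries also have a form of their own, and whether these libraries were prepared apart is not given. In p53R248W/+ replicate 1, the deepest library, genes of at least 6000 bases had a median log2 deviation of -0.37 from the mean of all libraries, and S100a8, a granulocyte gene, was at 799 CPM in p53+/+ replicate 2 and 548 CPM in p53R248W/+ replicate 2 against at most 44.3 CPM in the others.

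The PRC2 subunits were not transcribed at equal levels. Per length of the gene, as CPM per kilobase, Rbbp7 led in p53+/+ LSKs with 333 ± 21.9 (SD, n = 3 here and for each value below), followed by Rbbp4 with 123 ± 37 and Eed with 67.6 ± 6.74. Ezh2 followed at 42.9 ± 6.71 and Mtf2 at 34.9 ± 3.83, and these neighbours overlapped between libraries. Suz12 stood at 18.1 ± 2.56, Ezh1 at 14.1 ± 3.77, Jarid2 at 9.94 ± 2.87, and Aebp2 at 7.5 ± 0.936, each overlapping with the next. Phf19 was the lowest at 2.61 ± 0.647 and did not overlap with Aebp2. The shared histone binding genes thus exceeded all others, and Suz12 RNA was 0.27 ± 0.0486 of Eed RNA per length.

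**Figure D1:**
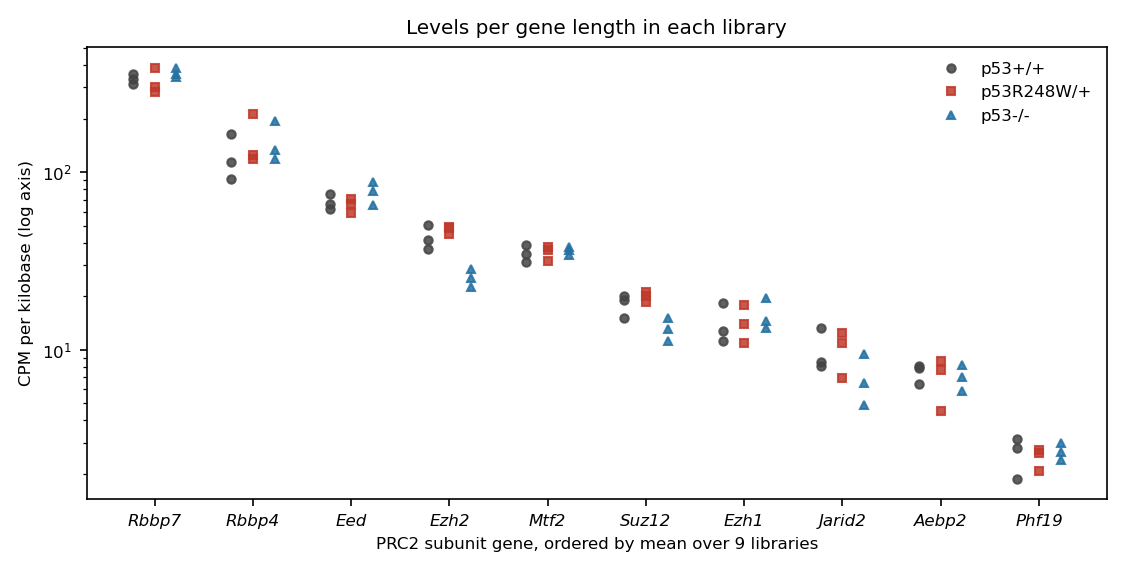
Level of each PRC2 subunit gene in CPM per kilobase of gene length on a log axis, with 1 point for each of 9 libraries and genotypes by color and shape. Rbbp7 and Rbbp4 lie above all other subunits and Phf19 below, and the blue p53-/- points of Ezh2 lie below its other points.

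In p53R248W/+ LSKs the order was the same for all 10 genes. In p53-/- LSKs 3 pairs of neighbours changed places: Mtf2 at 36.2 ± 1.77 CPM per kilobase came before Ezh2 at 25.6 ± 3.00, without overlap, Ezh1 at 15.8 ± 3.42 came before Suz12 at 13.2 ± 2.00, with overlap, and Aebp2 at 7.04 ± 1.19 came before Jarid2 at 6.94 ± 2.34, with overlap. Within a library, Rbbp7 was at the 97.8th to 98.5th percentile of all genes per length and Phf19 at the 18.9th to 27.6th. Ezh2 was at the 76.9th to 82.4th percentile in the 6 libraries of the other genotypes and at the 66.1st to 70.7th in the p53-/- libraries.

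Of the 10 subunits, 1 passed the test, the catalytic subunit Ezh2, which was lower in p53-/- LSKs than in either other genotype. In CPM it was at 98.5, 111, and 134 in p53+/+ replicates 1 to 3, at 120, 130, and 129 in p53R248W/+ replicates, and at 76.4, 68.0, and 60.5 in p53-/- replicates. The 3 p53-/- libraries were below all 6 others, and the p53+/+ and p53R248W/+ libraries overlapped. Ezh2 was lower in p53-/- than in p53+/+ LSKs by a log2 fold change of -0.74 (SE 0.168, 95% interval -1.11 to -0.38, adjusted p = 0.0377, edgeR), a level 0.597 times that of p53+/+. It was higher in p53R248W/+ than in p53-/- LSKs by 0.89 (SE 0.168, 95% interval 0.52 to 1.25, adjusted p = 0.0224, edgeR), which is 1.85-fold. These comparisons share the p53-/- libraries and are not independent of each other. Between p53R248W/+ and p53+/+ LSKs the log2 fold change of Ezh2 was 0.14 (95% interval -0.22 to 0.51, adjusted p = 1, edgeR), so that an Ezh2 level from 0.858 to 1.42 times that of p53+/+ is within the interval. The difference was thus not detectable with 3 libraries for each genotype.

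**Figure D2:**
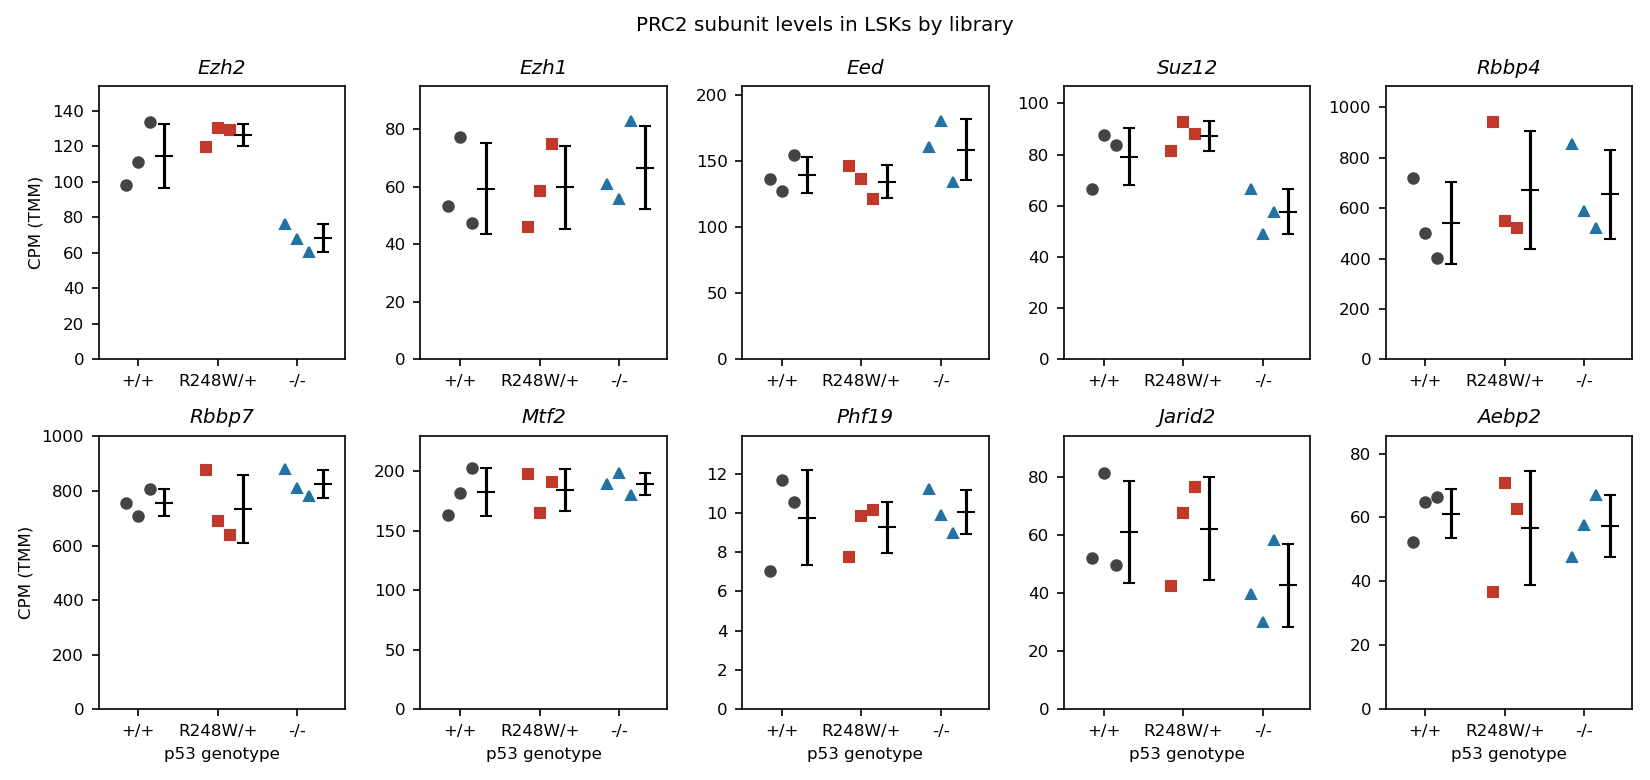
CPM with TMM factors of the 10 PRC2 subunit genes, with 1 point for each library (left to right replicates 1 to 3) and the mean ± SD beside them, n = 3 for each genotype. The p53-/- libraries of Ezh2 lie between 60.5 and 76.4 CPM, all below the other 6 libraries (98.5 to 134 CPM), and the genotypes overlap for most other genes.

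The call of Ezh2 in p53-/- against p53+/+ LSKs was close to the threshold. It was lost without p53+/+ replicate 2 (adjusted p = 0.103) or 3 (0.157), without p53R248W/+ replicate 2 (0.0594) or 3 (0.0541), and without p53-/- replicate 1 (0.0852), 2 (0.0896), or 3 (0.1) in edgeR. Over 21 alternatives the log2 fold change stayed between -0.84 and -0.62, and the adjusted p was between 0.00156 and 0.157. Among the 6 libraries without Y-linked signal it was -0.77 (adjusted p = 0.0789, edgeR), a comparison chosen after seeing the data. In edgeR, the call in p53R248W/+ against p53-/- LSKs was lost without p53R248W/+ replicate 2 (adjusted p = 0.0894) or 3 (0.0761) and without p53-/- replicate 2 (0.064) or 3 (0.082), with log2 fold changes between 0.79 and 0.95 over 21 alternatives.

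Ezh1, the other catalytic subunit, varied more between libraries of a genotype than between genotypes. It was at 53.4, 77.4, and 47.4 CPM in p53+/+, at 46.1, 58.6, and 74.8 CPM in p53R248W/+, and at 61.1, 55.7, and 82.8 CPM in p53-/- libraries. All 3 genotypes overlapped. Among the 6 libraries without Y-linked signal, a split chosen after seeing the data, the p53-/- values of Ezh1 lay above the rest. Ezh1 was not called in any alternative. Its log2 fold change was 0.16 for p53-/- against p53+/+ (95% interval -0.37 to 0.70, adjusted p = 0.726, edgeR) and 0.011 for p53R248W/+ against p53+/+ (95% interval -0.52 to 0.54, adjusted p = 1). Genotype accounted for 7.51% of the variance of log2 CPM of Ezh1 among the 9 libraries, against 89.2% for Ezh2 and a median of 30.8% over all genes.

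The balance of the catalytic subunits was read as the ratio of Ezh2 to Ezh1 within each library, per gene length, which does not depend on how libraries are scaled. On the log2 scale it was 1.54, 1.18, and 2.16 in p53+/+, 2.03, 1.81, and 1.45 in p53R248W/+, and 0.98, 0.95, and 0.20 in p53-/- libraries. The 3 lowest values were thus those of p53-/- LSKs, and Ezh2 exceeded Ezh1 in all 9 libraries. The mean ratios correspond to 3.09-fold in p53+/+, 3.39-fold in p53R248W/+, and 1.64-fold in p53-/- LSKs, or an Ezh2 share of both genes of 75.2% ± 6.18, 77.1% ± 3.66, and 61.9% ± 7.27. An exact permutation test over the 3 genotypes, two-sided, gave p = 0.0429. Permuted within the replicate numbers, the exact p was 0.139. Pairs of genotypes cannot go below an exact p of 0.1. The exact p was 0.1 for p53-/- against p53+/+ and for p53R248W/+ against p53-/-, and 0.8 for p53R248W/+ against p53+/+, or 0.15, 0.15, and 0.8 adjusted over 3 pairs. Without p53-/- replicate 3, which has the lowest ratio, the exact permutation p over the 3 genotypes was 0.139. It was also above the threshold without p53+/+ replicate 1 (exact p = 0.0786), p53R248W/+ replicate 1 (0.0714) or 2 (0.1), and p53-/- replicate 1 or 2 (0.0714 each).

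**Figure D3:**
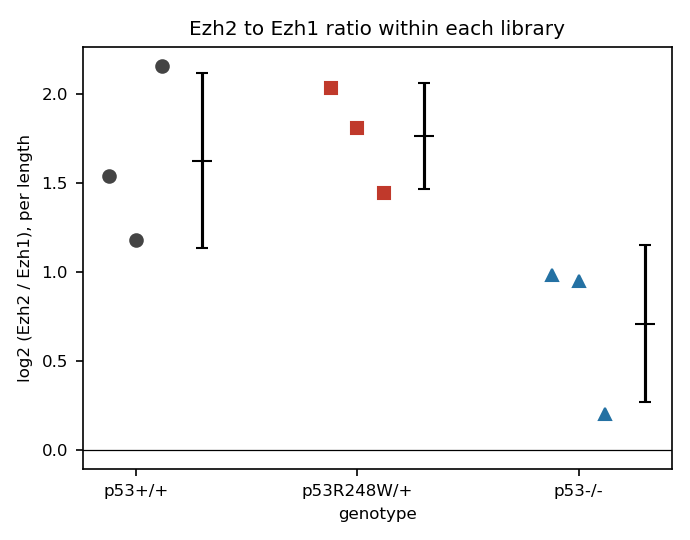
Log2 ratio of Ezh2 to Ezh1 per gene length in each of 9 libraries, with the mean ± SD of each genotype (n = 3). The p53-/- libraries lie between 0.20 and 0.98 and the other 6 between 1.18 and 2.16, all above 0, where both genes would be equal.

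The summed level of both catalytic genes was lowest in p53-/- LSKs. It was 49.6, 60, and 61.4 CPM per kilobase in p53+/+, 55.8, 62.8, and 66.2 in p53R248W/+, and 43.2, 38.7, and 42.4 in p53-/- libraries, with no overlap between p53-/- and the others. This sum and the ratios of subunits below were chosen after the values of the members were seen and are given without a test.

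Eed and Suz12, the core partners of the catalytic subunit, had fitted differences of opposite sign in p53-/- LSKs. Suz12 was at 66.4, 87.5, and 83.6 CPM in p53+/+, at 81.2, 92.8, and 87.9 CPM in p53R248W/+, and at 66.4, 49.0, and 57.6 CPM in p53-/- libraries. The highest p53-/- library reached the lowest p53+/+ library, while all p53R248W/+ libraries were above all p53-/- libraries. In p53-/- against p53+/+ LSKs Suz12 did not pass the threshold, with a log2 fold change of -0.46 for p53-/- against p53+/+ (SE 0.174, 95% interval -0.84 to -0.077, unadjusted p = 0.0224, adjusted p = 0.145, edgeR). For p53R248W/+ against p53-/- it was 0.60 (SE 0.174, 95% interval 0.22 to 0.98, adjusted p = 0.0775, edgeR), and this comparison did pass with DESeq2 (adjusted p = 0.0199), with the trend on gene length removed (0.0471), and without p53R248W/+ replicate 1 (0.0416), while other alternatives gave up to 0.420. For p53R248W/+ against p53+/+ it was 0.14 (95% interval -0.24 to 0.52). Eed was at 136, 127, and 154 CPM in p53+/+, at 146, 136, and 121 CPM in p53R248W/+, and at 160, 180, and 134 CPM in p53-/- libraries. The genotypes overlapped, and its log2 fold change was 0.18 for p53-/- against p53+/+ (95% interval -0.18 to 0.55, adjusted p = 0.539, edgeR).

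Relative to Eed, and per length, Suz12 was at 0.27 ± 0.0486 in p53+/+, 0.309 ± 0.0416 in p53R248W/+, and 0.175 ± 0.041 in p53-/- LSKs. The summed catalytic genes relative to Eed were at 0.848 ± 0.113, 0.956 ± 0.17, and 0.549 ± 0.104. In both ratios the 3 p53-/- libraries were the lowest of the 9.

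Rbbp4 and Rbbp7, the histone binding subunits, did not pass the test in any comparison. Rbbp4 was at 720, 501, and 401 CPM in p53+/+, at 941, 550, and 521 CPM in p53R248W/+, and at 856, 589, and 520 CPM in p53-/- libraries. The spread within each genotype exceeded the differences between them, and the log2 fold changes were 0.31 (95% interval -0.31 to 0.93) for p53R248W/+ and 0.28 (95% interval -0.34 to 0.90) for p53-/- against p53+/+. Rbbp7 was at 708 to 808 CPM in p53+/+, 639 to 876 CPM in p53R248W/+, and 782 to 881 CPM in p53-/- libraries. Its log2 fold change was 0.12 for p53-/- against p53+/+ (95% interval -0.23 to 0.47). Rbbp4 made up 26.7% ± 6.27, 31.5% ± 3.63, and 28.7% ± 4.11 of both genes per length in p53+/+, p53R248W/+, and p53-/- LSKs.

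Mtf2 and Phf19, the Polycomb-like subunits of PRC2.1, had fitted values close to equal between genotypes. Mtf2, which recruits PRC2 to CpG islands, was at 163 to 203 CPM in p53+/+, 165 to 198 CPM in p53R248W/+, and 180 to 198 CPM in p53-/- libraries. It was the member with the smallest biological coefficient of variation (15.7%) and the narrowest intervals. Its log2 fold changes were 0.016 for p53R248W/+ against p53+/+ (95% interval -0.32 to 0.36) and 0.051 for p53-/- against p53+/+ (95% interval -0.29 to 0.39). Phf19 was at 7.05 to 11.7 CPM over all 9 libraries, and its log2 fold change of 0.038 for p53-/- against p53+/+ had a 95% interval from -0.54 to 0.62.

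Jarid2 and Aebp2, the subunits of PRC2.2, did not pass the test either. Jarid2 was at 52.3, 81.5, and 49.8 CPM in p53+/+, at 42.5, 67.6, and 76.7 CPM in p53R248W/+, and at 39.9, 29.9, and 58.3 CPM in p53-/- libraries. The genotypes overlapped, with log2 fold changes of -0.52 for p53-/- against p53+/+ (95% interval -1.16 to 0.12, adjusted p = 0.313, edgeR) and 0.54 for p53R248W/+ against p53-/- (95% interval -0.099 to 1.19, adjusted p = 0.32). The 3 libraries with Y-linked signal had the 3 highest Jarid2 values, and with Y-linked expression as a covariate these became -0.23 and 0.0064. Aebp2 was at 36.8 to 70.8 CPM over all libraries, and its log2 fold change for p53-/- against p53+/+ was -0.091 (95% interval -0.61 to 0.43). Aebp2 and Jarid2 are the longest genes of the set at 8157 and 6158 bases, and long genes were low in p53R248W/+ replicate 1 and in p53-/- replicates 1 and 2, with median log2 deviations of -0.37, -0.22, and -0.23. The lowest Aebp2 value was that of p53R248W/+ replicate 1, and the 2 lowest Jarid2 values were those of p53-/- replicates 1 and 2. With the trend on gene length removed, an alternative chosen after seeing the data, Jarid2 was at -0.32 for p53-/- against p53+/+ (adjusted p = 0.287, edgeR) and 0.40 for p53R248W/+ against p53-/- (adjusted p = 0.215).

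**Figure D4:**
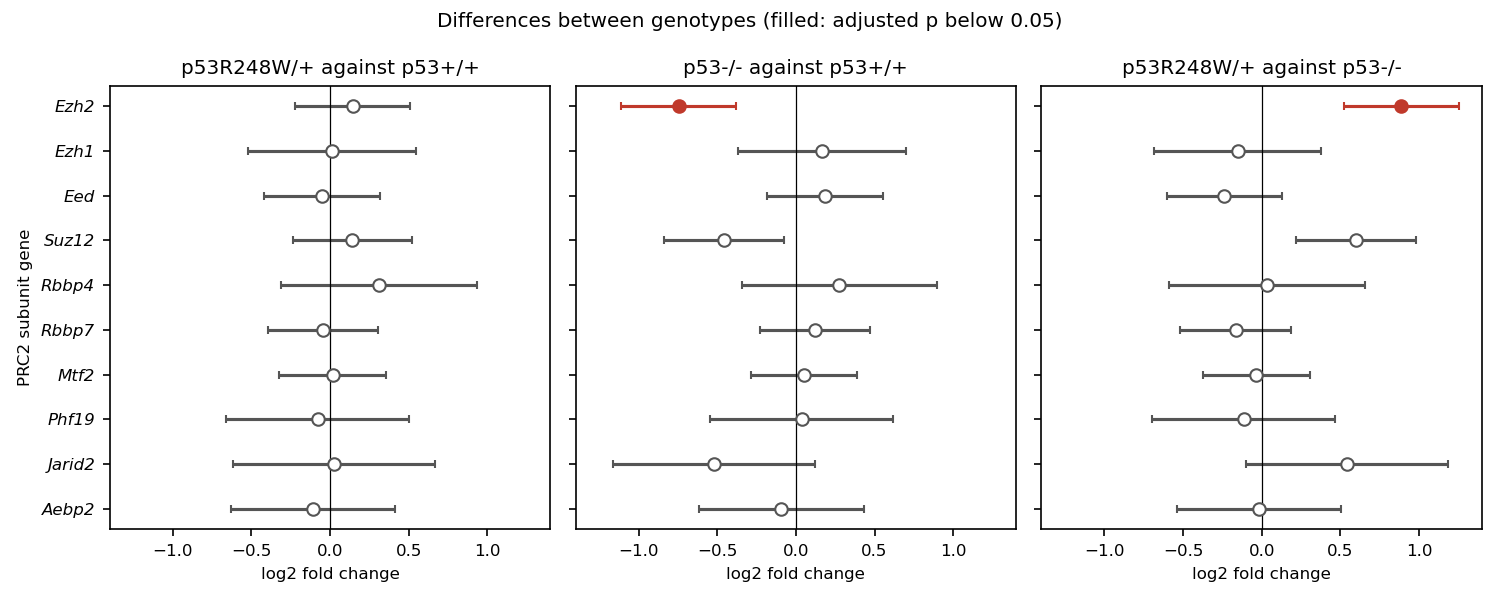
Log2 fold change of each PRC2 subunit gene in the 3 comparisons with its 95% interval (edgeR, 3 libraries for each genotype), filled where the adjusted p was below 0.05. Ezh2 is filled in both comparisons with p53-/- LSKs, at -0.74 and 0.89, and no gene is filled for p53R248W/+ against p53+/+.

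Counted over the set, 0 of 10 members passed the test in p53R248W/+ against p53+/+ LSKs, where 0.00792% of all genes tested did in edgeR. DESeq2 and limma-voom also called 0 members. At an unadjusted p below 0.05 it was 0 of 10 (0.958% of all genes), and no member had libraries that did not overlap (5.04% of all genes). In p53-/- against p53+/+ LSKs 1 of 10 was lower, Ezh2, against 2.25% of all genes. At an unadjusted p below 0.05, Ezh2 and Suz12 were lower (12.5% of all genes), and Ezh2 alone was lower without overlap (16% of all genes). In p53R248W/+ against p53-/- LSKs 1 of 10 was higher, Ezh2, against 2.34% of all genes. Ezh2 and Suz12 were higher at an unadjusted p below 0.05 (11.6% of all genes) and without overlap (12.1%). The median log2 fold change of the 10 members was 0.0136, 0.0448, and -0.0266 in these comparisons, beside 0.0117, -0.00125, and 0.0188 over all genes tested. Summed over the 10 genes, CPM per kilobase were 654 ± 25, 677 ± 103, and 696 ± 67.9 in p53+/+, p53R248W/+, and p53-/- LSKs.

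By mean log2 CPM, markers of cycling cells were lowest in the p53-/- libraries, as Ezh2 was, while their summed CPM overlapped between genotypes. The paper, by Ki67 and DAPI staining, describes LSKs without p53 as less quiescent, the other direction from these RNA levels. Cycling itself was not measured in these libraries. Of 22 proliferation genes, 22 had log2 fold changes below 0 in p53-/- against p53+/+ LSKs, with a median of -0.59, and 2 passed the test: Mki67 (-2.34, adjusted p = 0.0255, edgeR) and Top2a (-1.64, adjusted p = 0.0234), which encodes topoisomerase II alpha. Over all genes tested, 6321 of 12625 had values below 0 and 2.25% were called lower. The count of 2 fell to 0 without p53+/+ replicate 2 or 3 or p53-/- replicate 2 or 3. The summed level of the 22 genes was 3945 to 5730 CPM in p53-/-, 5645 to 7133 CPM in p53+/+, and 5715 to 6448 CPM in p53R248W/+ libraries, and in p53R248W/+ against p53+/+ LSKs 0 of 22 passed. The sum of these genes in p53-/- replicate 1 (5730 CPM) exceeded that in p53+/+ replicate 1 and p53R248W/+ replicate 3. Set against the mean log2 CPM of these genes within each library, Ezh2 was at -0.77 ± 0.0785 in p53+/+, -0.60 ± 0.0663 in p53R248W/+, and -0.77 ± 0.245 in p53-/- LSKs. On this scale the p53-/- libraries, from -1.05 to -0.62, overlapped with both other genotypes, and replicate 1 of p53-/- was the lowest of all libraries. The p53R248W/+ libraries, from -0.64 to -0.53, lay above the p53+/+ libraries, from -0.84 to -0.68. These differences on the relative scale were not tested. Suz12 on the same scale was at -1.29, -1.14, and -1.01. In these bulk libraries, fewer cells of a type and less RNA per cell cannot be told apart.

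**Figure D5:**
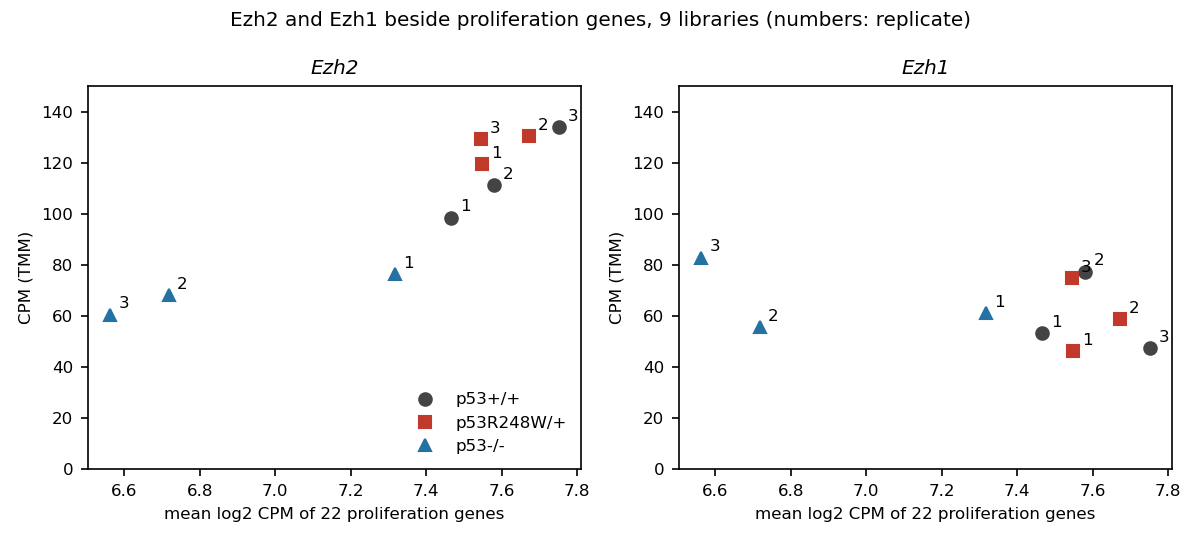
CPM of Ezh2 and of Ezh1 against the mean log2 CPM of 22 proliferation genes, with 1 point for each of 9 libraries, colored by genotype. The p53-/- libraries have the lowest proliferation means (6.56 to 7.32, the others 7.47 to 7.75) and the lowest Ezh2 levels (60.5 to 76.4 CPM), while their Ezh1 levels (55.7 to 82.8 CPM) overlap with those of the other libraries.

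Marker levels of cells within the LSK gate also differed between the genotypes, with few calls. Of all 12625 genes tested, 158 were called higher and 284 (2.25%) lower in p53-/- against p53+/+ LSKs. HSC markers summed to 1434 to 1546 CPM in p53-/-, 676 to 973 CPM in p53+/+, and 729 to 899 CPM in p53R248W/+ libraries, and 1 of 10 was called higher in p53-/- against p53+/+ LSKs (Hlf, log2 fold change 1.14, adjusted p = 0.0242, edgeR). Multipotent progenitor markers summed to 4508 to 5200, 6887 to 7287, and 7923 to 10170 CPM in the same order, and 1 of 7 was called lower (Dntt, -0.98, adjusted p = 0.0384). Mpo, 1 of these 7, was alone at 1125 to 1456, 1712 to 3087, and 3213 to 5776 CPM in that order. Of 5 markers listed for LSKs, 1 was called lower (Ptprc, which encodes CD45, -0.93, adjusted p = 0.0348). Ptprc is not part of the Lin-Sca1+Kit+ definition, and 4 of the 5 had log2 fold changes above 0 (median 0.218). Hlf, Dntt, Mpo, and Ptprc were named after their values were seen. Relative to the mean log2 CPM of the multipotent progenitor markers, Ezh2 was at -2.20 ± 0.234 in p53+/+, -2.19 ± 0.0522 in p53R248W/+, and -2.30 ± 0.176 in p53-/- LSKs, and the genotypes overlapped. Relative to the HSC markers it was at 1.87 ± 0.552, 1.98 ± 0.122, and 0.61 ± 0.178, and the p53-/- libraries (0.45 to 0.80) did not overlap with the others (1.41 to 2.48). Early response genes that are induced when tissue is dissociated summed to 830 to 1093 CPM in p53-/- libraries and to 1670 to 6783 CPM in the others, and 4 of 12 were called lower in p53-/- against p53+/+ LSKs (Jun, Fos, Hspa1a, and Zfp36). The part of cycling, of the mix of cells, and of these early response genes in the Ezh2 difference was not tested. A separate preparation of the p53-/- libraries, if there was one, cannot be told apart from genotype.

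Other chromatin and cell cycle genes are given as counts, beside 284 genes lower and 158 higher of all 12625 tested in p53-/- against p53+/+ LSKs. At that share, lists of this size can hold 0 calls without differing from other genes. Of 23 genes of PRC1, the complex that binds H3K27me3 and ubiquitinates histone H2A, 0 passed in any of the 3 comparisons, with a median log2 fold change of -0.00567 for p53-/- against p53+/+ LSKs. Of the other PRC2 accessory genes, Phf1, Lcor, and Lcorl were tested and 0 of 3 passed. Of 5 tested genes of PR-DUB, which removes ubiquitin from histone H2A, 0 passed and 5 had values below 0 (median -0.42). Of 6 tested genes for H3K27 demethylases and H3K36 methyltransferases, 0 passed and 5 had values below 0 (median -0.78). Of 19 genes of other complexes that hold RBBP4 or RBBP7, 0 passed (median -0.23). Of 13 E2F, DP, and pocket protein genes, 0 passed. Cdkn1a, which was listed with them and encodes the cell cycle inhibitor p21, a p53 target, was lower at -2.07 (adjusted p = 0.00914, edgeR). These counts rose under DESeq2 for some lists.

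Of 8 genes that have been described as held down by PRC2, 5 were tested. Cebpa and Gadd45g are on the list because the study examined them, so it is not independent evidence of a direction. Gadd45g, a stress response gene, was lower in p53-/- than in p53+/+ LSKs, at 1.23 ± 0.61 against 5.05 ± 1.39 CPM (log2 fold change -2.03, adjusted p = 0.0483, edgeR). This call was lost in 8 of 9 fits that left out 1 library, and with limma-voom and the replicate block. Cebpa, a myeloid transcription factor, was at 39.2 ± 11.3 against 27.9 ± 5.51 CPM (0.49, adjusted p = 0.27). In p53R248W/+ against p53+/+ LSKs the values were -0.53 for Gadd45g and 0.073 for Cebpa, and 0 of 5 passed. The paper reports both genes as significantly lower in p53R248W/+ long-term HSCs by quantitative RT-PCR, which is another cell fraction and another assay. For p53R248W/+ stem and progenitor cells it also reports higher H3K27me3 at both genes. In such cells, it states, both genes returned to normal expression once Ezh2 was deficient.

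The genes whose pattern over the 9 libraries was most like that of Ezh2 were named by the smallest root mean square difference of centred log2 CPM among 9677 genes. They were Mtif2 (0.102), Ssb (0.115), Cdc5l (0.117), Dnajc9 (0.125), and Nde1 (0.127), beside a deviation of Ezh2 itself from its mean of 0.413. For Ezh1, which deviated by 0.289, they were Zkscan1 (0.108), Mtmr3 (0.111), Atf7ip (0.114), Antxr2 (0.116), and Cerk (0.116). No gene stood in both lists.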

How the data were processed

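RNA of LSKs from 3 genotypes was sequenced in 9 libraries. The methods describe oligo(dT) beads and random hexamers, whereas the labels name a SMART-Seq v4 kit. The submitters' processing notes list STAR 2.5.2b, featureCounts of Subread 1.5.0, edgeR, and mm10. The authors deposited raw counts of reads for 12647 genes, each with at least 37 counts in total. The table also holds gene lengths and 9 columns of the authors' comparisons (fold changes on the log2 scale with their significance), which were not used. Whether counting used strand is not given in the sources used here.

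The genotypes were compared in R 4.3.3 with edgeR 4.0.16 (filterByExpr by genotype, TMM factors of 0.935 to 1.04, 1 quasi-likelihood fit to the 9 libraries, Benjamini-Hochberg adjustment over 12625 genes, threshold 0.05), after a test on simulated data. The ratio of Ezh2 to Ezh1 was tested by exact permutation over 1680 assignments. DESeq2 1.42.0, limma-voom (limma 3.58.1), other scalings and filters, a replicate block, covariates, and leaving out each library were the alternatives. The members and gene lists were chosen with earlier results of these data known. Named were all 10 members, up to 4 called genes of each other list, Trp53, Cdkn1a, Cebpa, and Gadd45g, and the 5 genes most like Ezh2 and Ezh1. CPM per kilobase used the deposited lengths, and promoters came from RefSeq tables read with Python 3.11.15.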

Additional observations from a re-analysis of the deposited data

How the results depend on the processing

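Of 630 recomputed log2 fold changes of members, 564 kept their direction and their side of the threshold, 15 lost the call, all of them of Ezh2, 3 gained it, all of Suz12, and 48 changed sign. None of those 48 was called, the lowest adjusted p being 0.392. The cause of these changes was not tested.

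Ezh2 kept its direction in all 21 alternatives of each comparison, and its values were 0.027 to 0.27 for p53R248W/+ against p53+/+. For p53-/- against p53+/+, 1 member was called, with 0 to 1 on leaving out 1 library, 2 at an unadjusted p below 0.05, and 0 without the p53+/+ and p53R248W/+ libraries numbered 2 (Ezh2 -0.77, adjusted p = 0.146, edgeR) or in the 6 libraries without Y-linked signal (Ezh2 -0.77, adjusted p = 0.0789). For p53R248W/+ against p53-/-, 1 was called, with 0 to 2 on leaving out 1 library, 2 under DESeq2, with the length trend removed, at an adjusted p below 0.1, and at an unadjusted p below 0.05, and 0 without the libraries numbered 2 (Ezh2 0.85, adjusted p = 0.119, edgeR) or in the 6 libraries without Y-linked signal (Ezh2 0.79, adjusted p = 0.212). The latter sets and the length trend were chosen after seeing the data. The difference of the log2 ratio of Ezh2 to Ezh1 (p53-/- minus p53+/+, -0.92) was -1.14 to -0.65 on leaving out 1 library.

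Correlations of deviations between libraries numbered 1, 2, and 3 were 0.558, 0.629, and -0.0362 for p53R248W/+ with p53+/+, 0.000554, -0.305, and -0.0423 for p53-/- with p53+/+, and 0.0978, -0.278, and 0.357 for p53R248W/+ with p53-/-. Numbers 1 and 2 thus deviated together in p53R248W/+ and p53+/+, while not every pair was above 0.1, so the numbers were not taken as pairs. This rule could miss pairing between only 2 genotypes. At each number the library labels of p53+/+ and p53R248W/+ share a form, and those of p53-/- have another. Whether the p53-/- libraries were prepared apart is not given. With the replicate block 0, 1, and 1 members were called, the ratio (-0.92) had a permutation p of 0.139 within numbers, and 2 signs changed in p53R248W/+ against p53+/+ (Ezh1 -0.0119, Jarid2 -0.0124). The block called 882 genes in p53-/- against p53+/+ and 672 in p53R248W/+ against p53-/-, beside 442 and 434 without it. For p53-/- against p53+/+ it called 1 PR-DUB gene, 3 genes of H3K27 demethylases and H3K36 methyltransferases, 1 of Rbbp4 and Rbbp7 partner complexes, 0 genes held down by PRC2, and 7 stress genes. For p53R248W/+ against p53-/- it called 1, 2, and 5 PR-DUB, demethylase and methyltransferase, and proliferation genes, 7 stress genes, and 4 sex-linked genes.

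Other sign changes for p53R248W/+ against p53+/+ were Ezh1 -0.19, Eed 0.0152, Rbbp7 0.0383, and Jarid2 -0.23 with the Y-linked covariate, Ezh1 -0.14, Rbbp7 0.15, and Jarid2 -0.28 in the 6 libraries without Y-linked signal, and Phf19 0.0122 without the libraries numbered 2. For p53-/- against p53+/+ they were Aebp2 0.0627 with the Y-linked covariate and 0.20 with the length trend removed. For p53R248W/+ against p53-/- they were Rbbp7 0.0114 and Mtf2 0.00704 with the Y-linked covariate, Rbbp7 0.0727, Jarid2 -0.0189, and Mtf2 0.0506 in the 6 libraries, and Mtf2 0.026 without the libraries numbered 2. On leaving out 1 library, values for p53R248W/+ against p53+/+ ranged from -0.18 to 0.25 for Ezh1, -0.13 to 0.0292 for Eed, -0.0251 to 0.57 for Rbbp4, -0.20 to 0.047 for Rbbp7, -0.15 to 0.29 for Jarid2, -0.0587 to 0.10 for Mtf2, -0.27 to 0.0738 for Phf19, and -0.30 to 0.12 for Aebp2. For p53-/- against p53+/+ they ranged from -0.0242 to 0.40 for Ezh1, -0.0232 to 0.14 for Mtf2, -0.15 to 0.19 for Phf19, and -0.22 to 0.0412 for Aebp2. For p53R248W/+ against p53-/- they ranged from -0.35 to 0.0355 for Ezh1, -0.32 to 0.25 for Rbbp4, -0.12 to 0.0401 for Mtf2, and -0.21 to 0.19 for Aebp2.

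Counts of the other lists moved more. For p53-/- against p53+/+, DESeq2 called 1 PR-DUB gene, 3 of demethylases and methyltransferases, 2 of partner complexes, 6 proliferation, 7 stress, and 3 sex-linked genes; limma-voom called 1 proliferation gene, 0 held down by PRC2, and 2 stress genes. A minimum of 10 counts in every library gave 1 PR-DUB gene, and the fit to 6 libraries of the genotypes compared gave 1 PR-DUB, 3 demethylase and methyltransferase, and 9 stress genes. The length trend gave 1, 1, and 1 for PR-DUB, demethylases and methyltransferases, and partner complexes, and 7 stress genes. Without the libraries numbered 2 it was 0 proliferation genes, 0 held down by PRC2, and 2 stress genes, and in the 6 libraries without Y-linked signal 0 held down by PRC2. Leaving out 1 library gave 0 to 1 PR-DUB, 0 to 3 demethylase and methyltransferase, 0 to 2 partner, 0 to 3 proliferation, 0 to 1 held down, 0 to 9 stress, and 0 to 1 sex-linked genes.

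For p53R248W/+ against p53-/-, DESeq2 called 1 other accessory, 1 PR-DUB, 3 demethylase and methyltransferase, 1 partner, 9 proliferation, 1 held down, 8 stress, and 4 sex-linked genes, and limma-voom 2 stress genes. The length trend gave 1, 1, and 1 as above and 7 stress genes, and 0 proliferation genes were called with the Y-linked covariate, without the libraries numbered 2, and in the 6 libraries without Y-linked signal. Leaving out 1 library gave 0 to 1 PR-DUB, 0 to 3 demethylase and methyltransferase, 0 to 4 partner, 0 to 1 E2F, 0 to 8 proliferation, 0 to 6 stress, and 0 to 4 sex-linked genes. Over all genes, DESeq2 called 6, 1552, and 1325, limma-voom 1, 297, and 333, and removing the length trend 2, 1192, and 883, beside 1, 442, and 434 in edgeR. The length trend turned the split of higher and lower calls from 158 and 284 to 659 and 533 in p53-/- against p53+/+, and from 295 and 139 to 431 and 452 in p53R248W/+ against p53-/-.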
